A study of Mus musculus with 18 samples.

Results

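The genes described here are 35 genes of DNA replication and S phase, taken from a list of symbols. They include origin loading factors, subunits of the replicative helicase, polymerases and primases, and the sliding clamp and its loader. The list also holds enzymes of nucleotide supply, replication-coupled chromatin factors, E2F1 and the E-type cyclins. Each gene was represented by the probe set annotated to its symbol alone, the one with the highest mean where several existed. All 35 were on the array, among 19938 genes with 1 symbol, and all 35 were among the 13387 genes tested after a filter on low values. Their level was above the 40th percentile of the array in all 18 arrays for 26 of the 35.

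Chromosomes are copied in S phase. In G1, ORC, Cdc6 and Cdt1 load a ring of Mcm proteins onto each origin, and Cdc45 and the GINS complex turn that ring into an active helicase. Primase and the polymerases then make the new strands, a clamp that RFC loads holds the polymerases on DNA, and ribonucleotide reductase and thymidylate synthase supply the nucleotides. Most of these genes are targets of E2F transcription factors, which cyclin E and its kinase help to release from the retinoblastoma protein. In marrow, dividing progenitors and promyelocytes express them, while mature neutrophils have left the cell cycle.

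Expression was measured on arrays of Ly-6C(hi) monocytes and neutrophils sorted from the bone marrow of C57BL/6 mice. Of the 18 arrays, each cell type had 4 from Zeb2(fl/fl) controls given poly(I:C), 4 from Zeb2(fl/fl);Mx1-Cre(tg) mice given poly(I:C), which are labelled Zeb2-deficient, and 1 from an untreated Zeb2(fl/fl) control. Poly(I:C), a synthetic double-stranded RNA that elicits interferon, was injected as 2 doses of 150 µg inside 48 h, and the marrow was collected after 3 weeks. Ages are not given in the labels. Every group carried the floxed alleles. The recombinase was present only in the groups labelled deficient and answers to interferon in many cell types, so loss of Zeb2 and presence of Cre cannot be told apart. Below, labelled deficient means these arrays, whatever their Zeb2 level.

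Nothing in the labels tells whether arrays of 1 group are different animals, so p-values measure the spread between these arrays, which may be technical. In bulk RNA of a sort, fewer cells of a type and less RNA per cell cannot be told apart. The Zeb2 probe set covers the whole transcript and does not check the deletion. It read 9.86 to 10.1 in control and 8.74 to 9.84 in labelled-deficient monocytes (adjusted p = 0.272), and 6.86 to 7.54 against 7.10 to 8.25 in neutrophils (adjusted p = 0.972), where it ran against the label. Checked against their markers, the sorted controls had all 10 monocyte markers tested higher in monocytes and all 12 neutrophil markers higher in neutrophils. Arrays are named by the number in their title, controls 1, 2, 4 and 5 and labelled deficient 1 to 4, and values are listed in that order on the deposited log2 intensity scale.

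Promoters are shown first because E2F sites are what this group of genes is best known to share. RefSeq windows from 250 bases before to 50 after an annotated start (build GRCm38.p6) were available for 29 of the 35 genes, 34 windows in all, and not for Mcm4, Ccne2, Gins1, Gins2, Pole and Prim2. Both strands were searched for 4 forms of the E2F motif, TTTCCCGC, TTTGGCGC, TTTCGCGC and TTTGCCGC. A match was found in 11 of the 34 windows (32.4%), against 744 of 32851 windows of all genes (2.26%). The share was 12 of 59 (20.3%) for other replication genes, 6 of 13 (46.2%) for E2F and pocket protein genes and 1 of 20 (5.0%) for genes of mitosis and G2. Mcm6 had 3 matches and Rfc3, Mcm3, Mcm7 and Mcm5 had 2 each. Mcm6 and the 3 of these with the larger change in monocytes, which leaves out Mcm5, are printed below from 250 bases before the start to 30 after it, 280 bases each, 5′ to 3′ on the gene's strand. Capitals mark the motif, on either strand (read as its reverse complement on the other strand). All 4 genes lie on the minus strand: Mcm6 at chr1:128359676-128359955, Rfc3 at chr5:151651179-151651458, Mcm3 at chr1:20820283-20820562 and Mcm7 at chr5:138171854-138172133.
Mcm6: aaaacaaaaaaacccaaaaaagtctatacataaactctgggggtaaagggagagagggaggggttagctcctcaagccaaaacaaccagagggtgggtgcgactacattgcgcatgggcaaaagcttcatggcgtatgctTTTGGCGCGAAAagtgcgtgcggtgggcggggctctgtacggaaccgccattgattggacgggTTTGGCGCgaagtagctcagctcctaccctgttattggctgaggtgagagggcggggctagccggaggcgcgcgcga
Rfc3: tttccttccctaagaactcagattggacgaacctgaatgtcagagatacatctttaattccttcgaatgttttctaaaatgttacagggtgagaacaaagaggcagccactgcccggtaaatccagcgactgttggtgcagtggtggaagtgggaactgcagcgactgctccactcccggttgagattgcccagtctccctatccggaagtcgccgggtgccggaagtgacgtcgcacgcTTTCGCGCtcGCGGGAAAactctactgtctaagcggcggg
Mcm3: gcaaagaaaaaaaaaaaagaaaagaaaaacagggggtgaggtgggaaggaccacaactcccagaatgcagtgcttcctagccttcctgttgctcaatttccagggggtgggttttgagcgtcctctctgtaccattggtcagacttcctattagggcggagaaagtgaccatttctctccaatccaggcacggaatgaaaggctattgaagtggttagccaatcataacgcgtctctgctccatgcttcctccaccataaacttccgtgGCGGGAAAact
Mcm7: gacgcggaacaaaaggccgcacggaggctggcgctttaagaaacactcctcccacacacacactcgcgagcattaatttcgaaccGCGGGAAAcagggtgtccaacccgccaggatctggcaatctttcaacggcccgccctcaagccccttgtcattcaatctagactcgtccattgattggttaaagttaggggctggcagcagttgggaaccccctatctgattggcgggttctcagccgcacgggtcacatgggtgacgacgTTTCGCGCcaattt
In Mcm6, 2 of the 3 matches overlap on opposite strands and share 1 run of capitals. In Rfc3 a pair of matches flanks the annotated start. Of the 2 matches in Mcm3, 1 lies beyond the stretch printed, and the matches of Mcm7 stand on either side of its start.

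**Figure D1:**
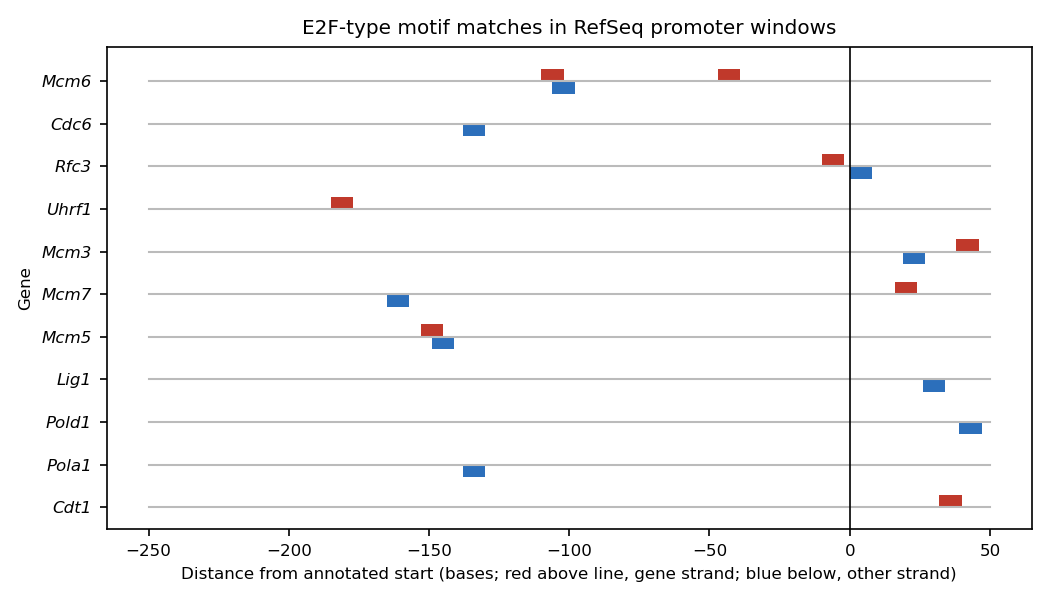
E2F motif matches in the promoter windows of the 11 genes that had any, ordered by their change in monocytes; the x axis is the distance from the annotated start in bases, red blocks above the line are on the gene's strand and blue blocks below it on the other. The 17 matches lie on both sides of the start, 9 of them between 100 bases before and 50 after it.

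The other windows with a match belonged to Cdc6, Uhrf1, Mcm5, Lig1, Pold1, Pola1 and Cdt1. By gene, 11 of 29 held a match (37.9%), 8 of the 18 that rose in labelled-deficient monocytes (44.4%) and 3 of the 11 that did not pass (27.3%). A match is a string of letters and not a measured binding site.

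In monocytes labelled deficient, most replication genes rose and none fell. Of the 35 genes, 22 passed the test as higher and 0 as lower (limma, adjusted p at most 0.05), where 5.11% of all genes tested were higher and 2.44% lower. All 35 changes lay above 0, with a median of 0.77 (log2) against -0.03 over all genes, and 11 that passed reached at least 1, a doubling. The 4 labelled-deficient arrays lay wholly above the 4 controls in 21 genes, where 6.12% of all genes did so. Per array, the median of the 35 ran from 6.41 to 6.56 in control and 6.75 to 7.69 in labelled-deficient monocytes, and from 5.16 to 5.25 and 5.22 to 5.44 in the same groups of neutrophils. The largest rises were Rrm2 (1.28), Ccne2 (1.26), Mcm2 (1.23), Mcm6 and Mcm4 (both 1.12), Rrm1 (1.10), Cdc6 (1.09), Rfc3 (1.08), Prim1 (1.06) and Uhrf1 (1.05). One array stood apart: labelled-deficient monocyte array 2 was the lowest of its 4 in 34 of the 35 genes, and in 579 of the 684 genes called higher. Without it 31 of the 35 genes passed, where 7.84% of all genes were higher. The SE and adjusted p given here rest on a spread shared by all groups of both cell types. With only the monocyte groups of this comparison fitted, 18 of the 35 passed, where 2.97% of all genes were higher. Fitting the number in the title as a block gave 20, where 4.59% of all genes were higher. This pairs the genotypes only in part, since numbers 1, 2 and 4 alone occur among both poly(I:C) controls and labelled-deficient arrays. The adjusted p from that fit is given below for the genes whose call it changed.

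**Figure D2:**
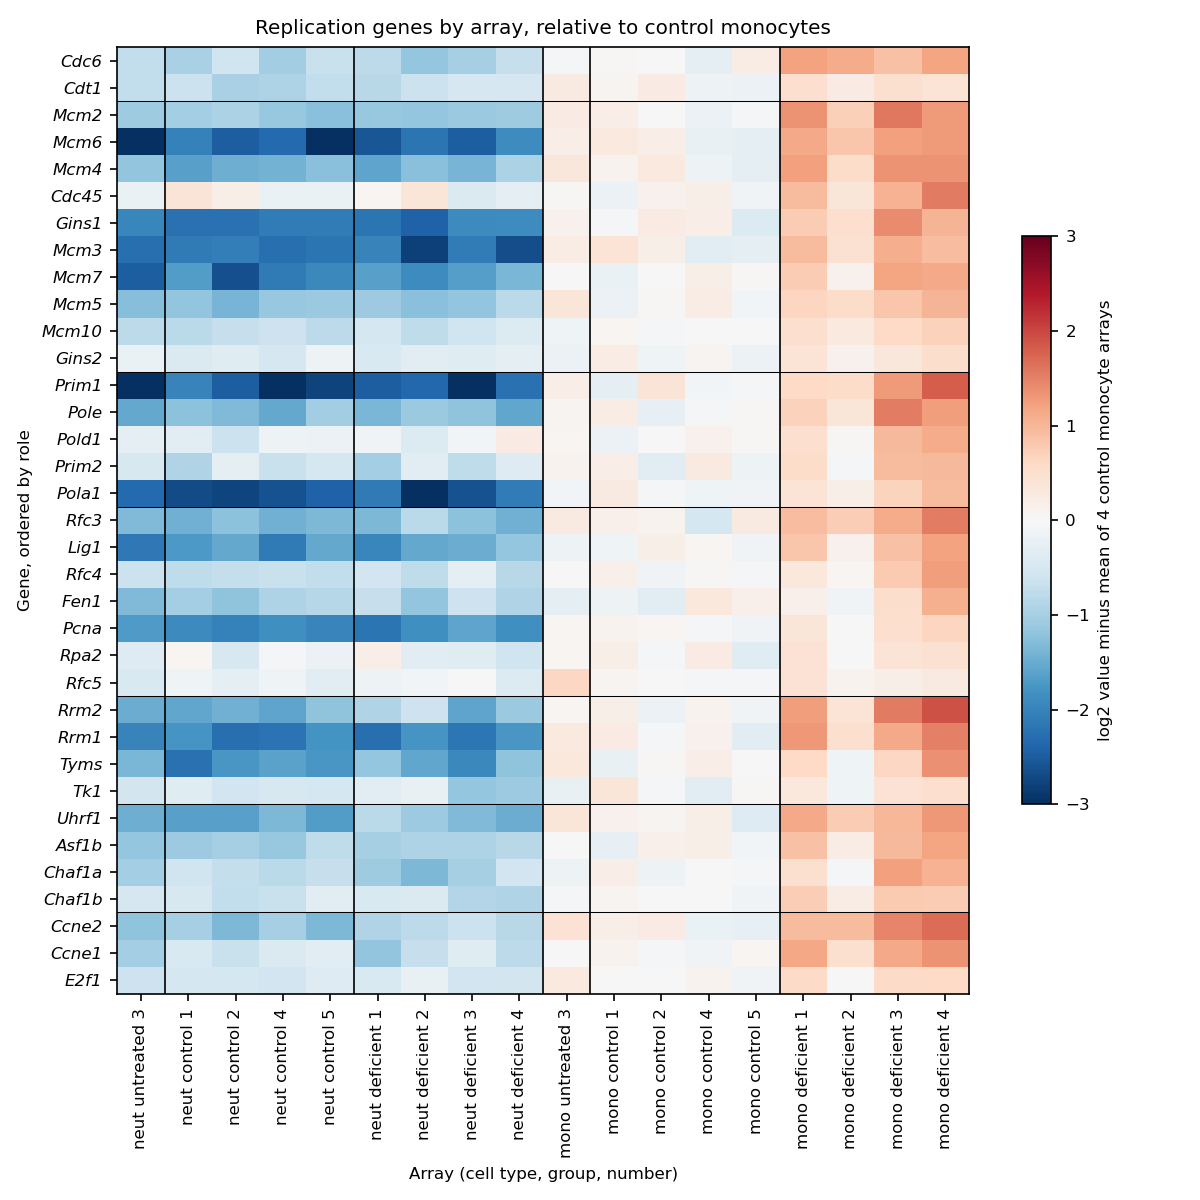
Values of the 35 genes (rows, by role) in the 18 arrays (columns, by cell type and group), as the log2 value minus the mean of the 4 poly(I:C) control monocyte arrays; red is higher and blue lower. Labelled-deficient monocytes are red in nearly every row, palest in array 2, and neutrophil arrays of every group are blue in most rows.

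The origin loading factors differed from each other. Cdc6, the ATPase that brings the Mcm ring to origins, read 5.34, 5.31, 5.03 and 5.52 in control monocytes and 6.51, 6.40, 6.17 and 6.47 in those labelled deficient. Every labelled-deficient array lay above every control, with a narrow spread in both groups, and the rise was 1.09 ± 0.14 (SE), 2.13-fold, with adjusted p = 7.55e-05. For Cdt1, its loading partner, controls read 5.94, 6.09, 5.71 and 5.67 and labelled-deficient arrays 6.35, 6.09, 6.33 and 6.25. The groups only just failed to overlap, and the difference of 0.41 ± 0.12 (SE) did not pass (adjusted p = 0.0504).

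Helicase genes had 9 of 10 higher and a median change of 0.89. Mcm2, a subunit of the ring, read 6.63, 6.45, 6.27 and 6.41 in controls and 7.79, 7.16, 8.02 and 7.72 in labelled-deficient monocytes. Array 2 was the lowest here, yet still above all controls, and the change was 1.23 ± 0.15 (SE), 2.34-fold (adjusted p = 3.98e-05). Mcm6 read 7.91, 7.81, 7.40 and 7.32 against 8.75, 8.44, 8.84 and 8.89, a rise of 1.12 ± 0.21 (SE) with adjusted p = 0.00209. Its controls split into a higher pair (1 and 2) and a lower pair (4 and 5), both under the labelled-deficient arrays. Mcm4 read 6.99, 7.17, 6.73 and 6.60 against 8.11, 7.42, 8.21 and 8.21, with adjusted p = 6.78e-04. Of the remaining ring subunits, Mcm3 rose by 0.85, Mcm7 by 0.80 and Mcm5 by 0.77. The GINS subunit Gins1 rose by 0.93, Cdc45 by 0.98 and Mcm10, which helps to start the helicase, by 0.52. Among these, only Mcm7 had overlapping groups. Gins2 was at 0.35 ± 0.12 (SE) and did not pass (adjusted p = 0.0959).

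**Figure D3:**
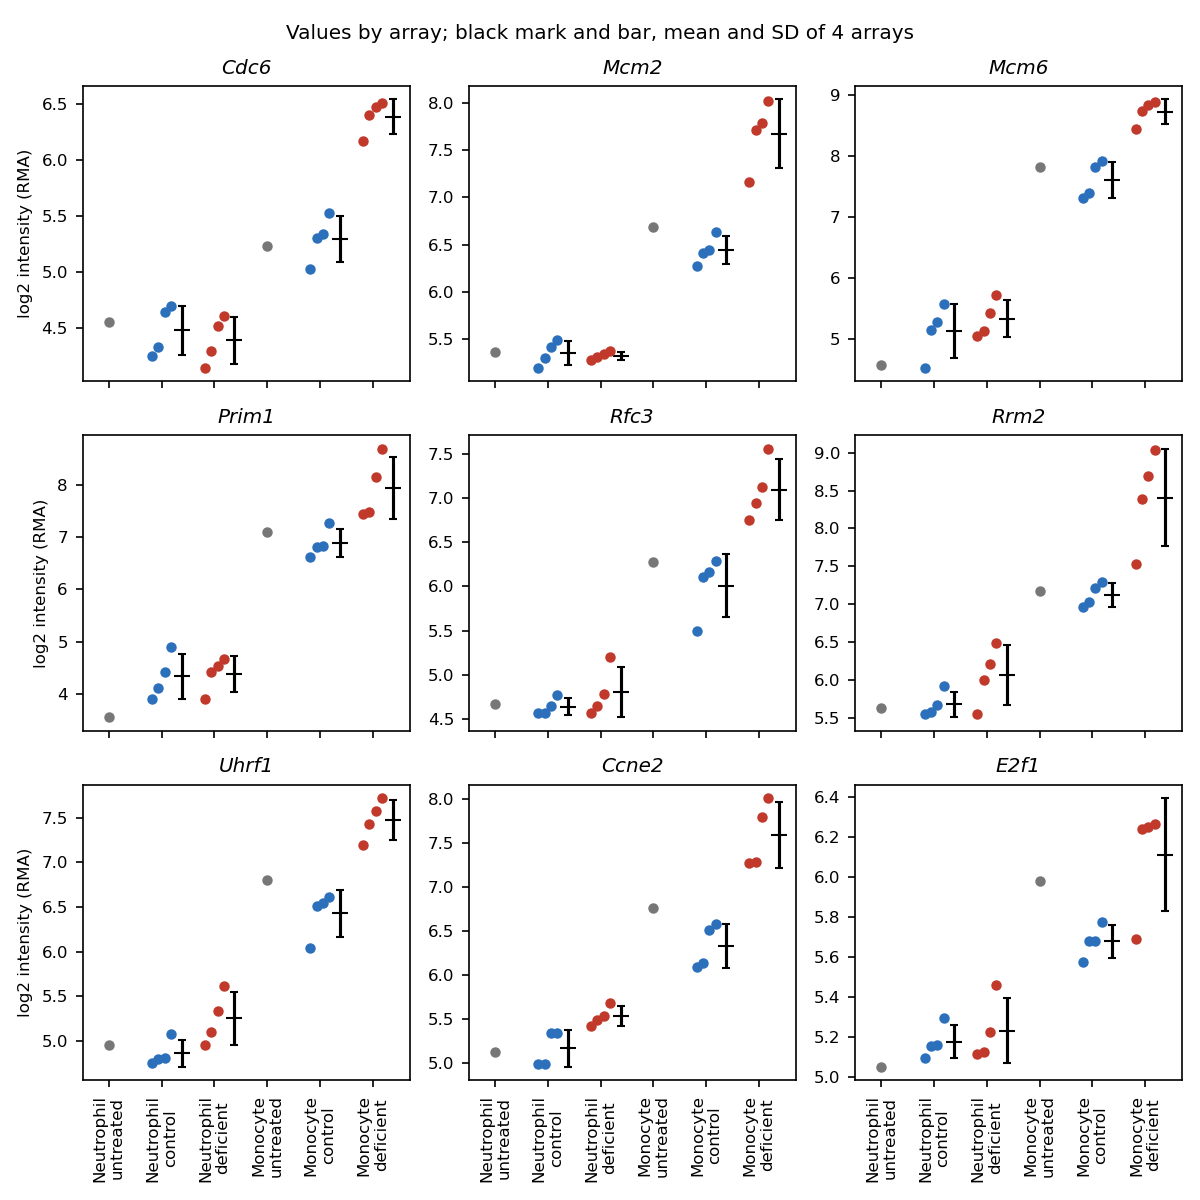
Log2 intensity of 9 genes, 1 or 2 from each role, in each array (points, drawn by rising value within a group), with the mean and SD of groups of 4 in black; red is labelled deficient, blue poly(I:C) control and grey untreated. In monocytes the red points stand above the blue ones in 8 of the 9 panels and meet them in E2f1, while in neutrophils red and blue points overlap in 8 of the 9, Ccne2 being the exception.

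Among polymerases and primases, 2 of 5 rose. Prim1, the catalytic subunit of primase, read 6.63, 7.28, 6.81 and 6.84 in controls and 7.48, 7.45, 8.16 and 8.70 in labelled-deficient monocytes. Arrays 3 and 4 carried most of the rise of 1.06 ± 0.26 (SE), for which adjusted p was 0.0175, or 0.055 with the replicate number as a block. Pole, the catalytic subunit of the leading-strand polymerase, read 5.61, 5.14, 5.35 and 5.41 against 6.06, 5.74, 6.92 and 6.64, a rise of 0.96 ± 0.20 (SE) with adjusted p = 0.00486. The groups did not overlap, although array 2 came within reach of control 1. Pold1, the catalytic subunit of polymerase delta, read 5.68, 5.87, 5.99 and 5.89 against 6.37, 5.88, 6.82 and 6.97. Array 2 sat inside the control range, and the difference of 0.65 ± 0.20 (SE) stopped just short (adjusted p = 0.0509, or 0.0244 with the replicate block). Prim2, the large primase subunit, and Pola1, the catalytic subunit of polymerase alpha, were at 0.61 and 0.55 and did not pass (adjusted p = 0.0889 and 0.106).

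Clamp and fork completion genes had 2 of 7 higher and, at 0.40, the lowest median change of the 7 roles. Rfc3, a subunit of the clamp loader, read 6.16, 6.10, 5.49 and 6.28 in controls and 6.95, 6.75, 7.13 and 7.55 in labelled-deficient monocytes, 1.08 ± 0.19 (SE) higher with adjusted p = 0.00107. The groups were apart even though control 4 was low. Lig1, the ligase that seals lagging-strand fragments, read 6.83, 7.14, 7.01 and 6.86 against 7.79, 7.08, 7.85 and 8.18. Array 2 lay among the controls and the other arrays well above, and the rise was 0.77 ± 0.21 (SE), adjusted p = 0.028, or 0.0736 with the replicate block. Rfc4 read 6.29, 6.04, 6.19 and 6.09 against 6.48, 6.21, 6.95 and 7.40, a difference of 0.60 ± 0.19 (SE) that did not pass (adjusted p = 0.0615). Its arrays 3 and 4 were high, array 1 a little above the controls and array 2 among them.

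The clamp itself, Pcna, read 10.51, 10.48, 10.35 and 10.31 in controls and 10.77, 10.43, 10.92 and 11.05 in labelled-deficient monocytes, 0.38 ± 0.14 (SE) apart, and did not pass (adjusted p = 0.104). A further Pcna probe set differed by 0.37. Fen1, the flap nuclease, was at 0.40 (adjusted p = 0.29), Rpa2 of the single-strand binding complex at 0.33 (0.329) and the loader subunit Rfc5 at 0.25 (0.218). Rfc5 had groups that did not overlap all the same.

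Of 4 nucleotide supply genes 2 rose, both of them subunits of ribonucleotide reductase. Rrm2, the small subunit, which peaks in S phase, read 7.29, 6.96, 7.22 and 7.02 in controls and 8.38, 7.52, 8.69 and 9.03 in labelled-deficient monocytes. All 4 arrays stood above the controls, spread over more than a doubling among themselves, and the rise was 1.28 ± 0.24 (SE), 2.43-fold, adjusted p = 0.00268. The large subunit Rrm1 read 7.69, 7.40, 7.58 and 7.14 against 8.76, 7.93, 8.58 and 8.95, a rise of 1.10 ± 0.20 (SE) with adjusted p = 0.00193. Here too array 2 was the lowest and cleared the controls. Tyms, thymidylate synthase, read 6.64, 6.89, 7.06 and 6.86 against 7.46, 6.73, 7.48 and 8.24. Array 2 fell below 3 of the 4 controls, and the difference of 0.62 ± 0.24 (SE) did not pass (adjusted p = 0.146). Tk1, thymidine kinase, was at 0.28 (adjusted p = 0.506) by the probe set used, the one with the highest mean. Its further probe set differed by 0.74, so that its probe sets disagree in size. Which of them reads Tk1 itself was not tested, so the Tk1 values given here hold for the set used.

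Chromatin factors were higher in 3 of 4. Uhrf1, which guides maintenance DNA methylation at the fork, read 6.55, 6.51, 6.61 and 6.04 in controls and 7.57, 7.19, 7.43 and 7.72 in labelled-deficient monocytes. The groups were well apart, by 1.05 ± 0.16 (SE), 2.07-fold (adjusted p = 3.80e-04). Asf1b, a histone chaperone, read 6.38, 6.77, 6.81 and 6.54 against 7.50, 6.85, 7.60 and 7.80 and rose by 0.81 ± 0.17 (SE), adjusted p = 0.00456. Its array 2 barely cleared control 4. Chaf1a and Chaf1b encode subunits of the assembly factor that deposits histones behind the fork. Chaf1a read 6.22, 5.88, 6.03 and 5.95 against 6.49, 5.97, 7.24 and 7.06, a difference of 0.67 ± 0.21 (SE) that did not pass (adjusted p = 0.0633), with array 2 among the controls. Chaf1b rose by 0.62 with adjusted p = 0.0119.

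All 3 regulators passed as higher, E2f1 only narrowly. Ccne2, cyclin E2, read 6.51, 6.58, 6.14 and 6.09 in controls and 7.28, 7.27, 7.80 and 8.01 in labelled-deficient monocytes, a rise of 1.26 ± 0.17 (SE), 2.40-fold, adjusted p = 1.14e-04. Arrays 1 and 2 were alike here and arrays 3 and 4 higher still. Ccne1, cyclin E1, read 5.79, 5.61, 5.57 and 5.75 against 6.84, 6.16, 6.80 and 7.02 and rose by 1.03 ± 0.18 (SE), adjusted p = 0.00107. No array of either group crossed the other. E2f1, the activating E2F, read 5.68, 5.68, 5.77 and 5.57 against 6.24, 5.69, 6.25 and 6.27, a rise of 0.43 ± 0.13 (SE) with adjusted p = 0.0455, or 0.108 with the replicate block. Array 2 sat with the controls, and the other 3 arrays lay close together above them. E2f1 passed in 2 of the 16 fits that each left out 1 array, with adjusted p from 0.00129 to 0.149.

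For this description the arrays were divided by the numbers in their titles. Array set A took the lower numbers, controls 1 and 2, labelled deficient 1 and 2 and the untreated arrays, numbered 3. Array set B took the higher ones, controls 4 and 5 and labelled deficient 3 and 4. Each set held both genotypes. The labels give neither this division nor anything that would tell the sets apart. Within set B 31 genes passed, where 7.54% of all genes were higher, with a median change of 1.05. In set A, where 1.43% of all genes were higher, only Cdc6 (1.14, adjusted p = 0.0101) and Uhrf1 (0.85, adjusted p = 0.0402) passed. Still, 34 of the 35 changes were above 0 and their median was 0.45, the exception being the Tk1 probe set used, at -0.06. With the set as a block 26 passed, where 6.87% of all genes were higher. The set B change exceeded the set A change in 34 genes, Cdc6 being the one that did not. Between sets, labelled-deficient monocytes shifted by a median of 0.45, control monocytes by -0.09, control neutrophils by 0.04 and labelled-deficient neutrophils by 0.10.

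In neutrophils 0 of the 35 genes passed (limma), where 0.105% of all genes were higher and 0.0149% lower. Of the 35, 3 had an unadjusted p under 0.05, Mcm7, Uhrf1 and Ccne2, all higher, where 683 of all 13387 genes tested did. The median change was 0.07, with 23 of 35 above 0. In 8 genes the control mean lay below 4.50, the highest 40th percentile of an array, as did the labelled-deficient mean in 8. Changes in these genes are not settled. Mcm7 (0.46), Uhrf1 (0.39), Rrm2 (0.39), Ccne2 (0.37), Tyms (0.37), Pold1 (0.23), Cdt1 (0.20), Mcm6 (0.20), Lig1 (0.19) and Rfc3 (0.16) were the highest, and Ccne1 and Chaf1a the lowest, both at -0.29. Ccne2 read 5.34, 4.99, 5.34 and 4.98 in controls and 5.42, 5.54, 5.69 and 5.49 in labelled-deficient neutrophils (adjusted p = 0.971), the only one of the 35 without overlap, where 1.84% of all genes were higher without overlap. The gap between its groups was narrow. Mcm2, among the largest rises in monocytes, read 5.41, 5.49, 5.30 and 5.20 against 5.31, 5.27, 5.34 and 5.37 in neutrophils, and the labelled-deficient arrays fell inside the control range.

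**Figure D4:**
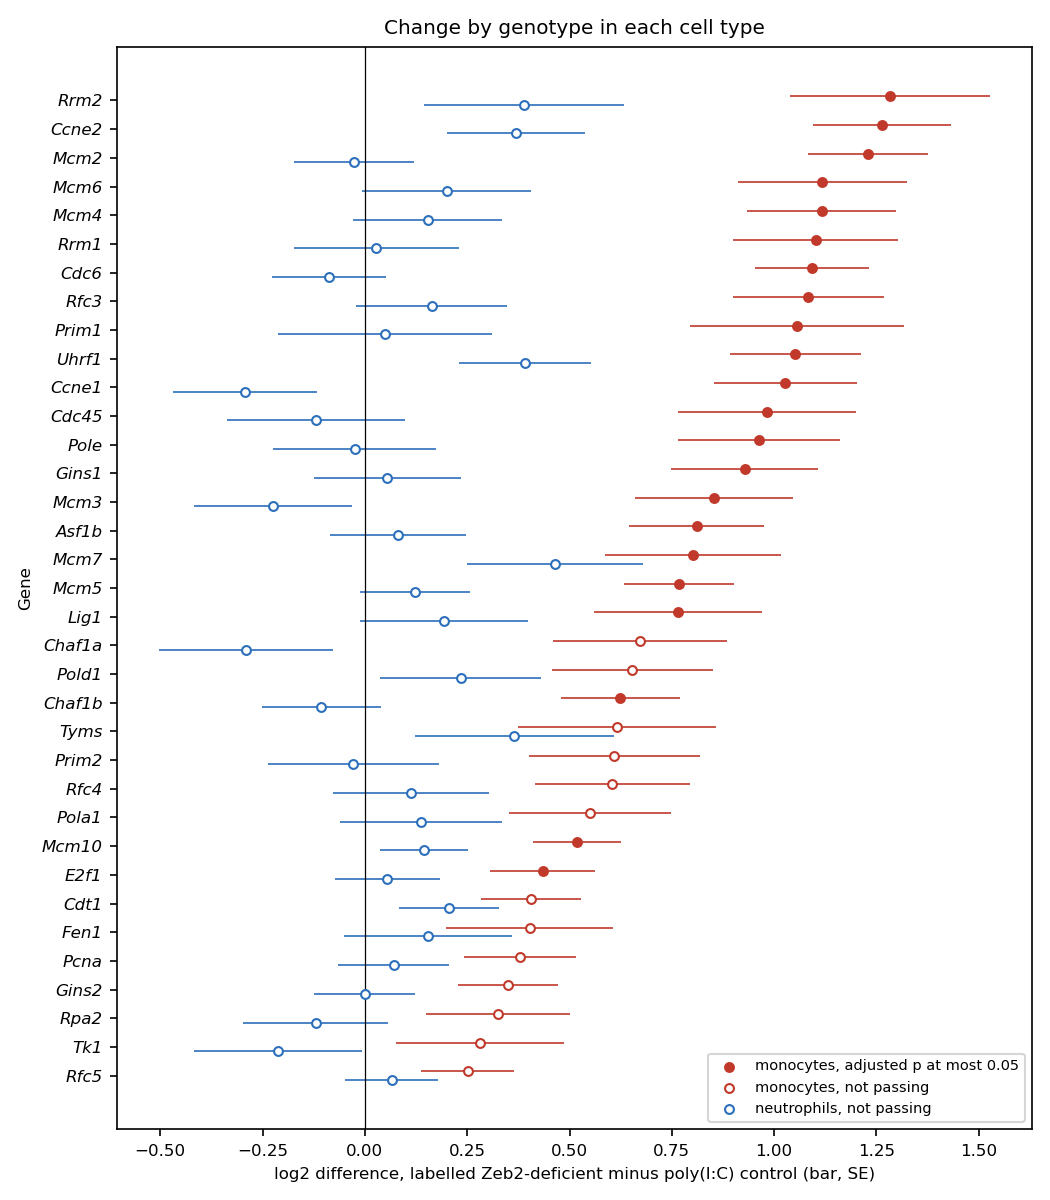
Log2 difference between labelled Zeb2-deficient and control arrays (the former minus the latter) for each of the 35 genes in monocytes (red) and neutrophils (blue), with SE bars; filled points passed at an adjusted p of 0.05. All red points lie to the right of 0, from 0.25 to 1.28, while the blue ones lie on both sides of it, from -0.29 to 0.46.

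The difference between these changes was tested directly. It passed for 4 genes, all with the larger change in monocytes, where 2.17% of all genes passed in that direction and 0.515% in the other: Ccne1 (1.32 ± 0.25 SE, adjusted p = 0.0058), Mcm2 (1.26 ± 0.21, 0.00247), Cdc6 (1.18 ± 0.20, 0.00268) and Mcm3 (1.08 ± 0.27, 0.041). The highest 40th percentile of an array was 4.50. Below it in neutrophils lay the Cdc6 means, 4.48 control and 4.39 labelled deficient, and the labelled-deficient Mcm3 mean, 4.48. The size of the difference is thus not settled for Cdc6 and Mcm3. Cdc45 (1.10), Rrm1 (1.07), Prim1 (1.01), Pole (0.99), Chaf1a (0.96) and Mcm4 (0.96) complete the 10 largest and did not pass, with adjusted p from 0.0519 to 0.201. All 35 differences were above 0, with a median of 0.66 against -0.02 over all genes. An unadjusted p under 0.05 was found for 21, where 1807 of all 13387 genes tested had one. The count depended on single arrays: 18 genes passed without labelled-deficient monocyte array 2 (4.24% of all genes in that direction), 7 without labelled-deficient neutrophil array 2 (2.37%), 0 within set A (0.508%) and 15 within set B (3.68%). With the replicate number as a block 7 passed (2.67% of all genes in that direction), Mcm5, Gins1 and Ccne2 being added (adjusted p = 0.0354, 0.0294 and 0.0474).

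Between the control cell types, replication genes were higher in monocytes. Of the 35, 30 were higher and 0 lower, where 29.9% of all genes were higher in monocytes and 28.7% lower, and the median difference was 1.09 against -0.08 over all genes. Centring each array on its median turned the background split to 22.1% higher and 51.3% lower and left 24 of the 35 higher and 0 lower, with 32 above 0. The largest measured differences were in Pola1 (2.62 ± 0.20 SE, adjusted p = 3.15e-09), Prim1 (2.56), Mcm6 (2.48), Mcm3 and Gins1 (both 2.16), Mcm7 (2.09), Rrm1 (2.01), Pcna (1.94), Tyms (1.83) and Lig1 (1.73). Arrays did not overlap in 30 genes, where 28.6% of all genes were higher in monocytes without overlap. Tk1 (0.48), Pold1 (0.32), Rfc5 (0.22), Rpa2 (0.16) and Cdc45 (-0.04) did not pass. For 8 genes, among them Pola1, Prim1, Gins1 and Mcm7, the control neutrophil mean lay below the highest 40th percentile of an array (4.50), so the size and order of those differences are not settled.

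Pola1 was one of these, reading 6.80, 6.47, 6.41 and 6.42 in control monocytes and 3.83, 3.77, 3.91 and 4.10 in control neutrophils. No monocyte array came near a neutrophil array. Cdc45, by comparison, had means of 7.24 ± 0.17 (SD, n = 4) in control monocytes and 7.28 ± 0.30 (SD, n = 4) in control neutrophils, and rose in labelled-deficient monocytes to 8.22 ± 0.48 (SD, n = 4).

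Among labelled-deficient arrays all 35 genes were higher in monocytes than in neutrophils, where 30.0% of all genes were higher and 32.1% lower (21.5% and 52.4% after median-centring, which left 33 of the 35 higher). The median difference was 2.00, and 33 genes did not overlap, where 25.2% of all genes were higher without overlap. The largest measured differences were in Prim1 (3.57 ± 0.26 SE, adjusted p = 3.28e-09), Mcm6 (3.40), Mcm3 (3.24), Rrm1 (3.09), Pola1 and Gins1 (both 3.04), Mcm7 (2.43), Mcm4 (2.41), Mcm2 (2.35) and Rrm2 (2.34). In 8 genes, among them Prim1, Mcm3, Pola1 and Gins1, the labelled-deficient neutrophil mean lay below 4.50, so size and order are not settled for these either. Rfc5 had the smallest difference, at 0.41. These contrasts share arrays with the genotype comparisons above and are not separate evidence.

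Poly(I:C) itself could be set only against 1 untreated control per cell type, with no test. The untreated monocyte array lay above the range of the 4 treated controls in 10 of the 35 genes and below it in 3, against 22.6% and 15.4% of all genes. Rfc5 was the farthest above, at 8.03 against 7.36 to 7.49, followed by E2f1 at 5.98 against 5.57 to 5.77. The untreated neutrophil array lay above in 6 and below in 10, against 18.4% and 18.6% of all genes, Prim1 being the farthest below at 3.55 against 3.90 to 4.89. The untreated monocyte array was above the labelled-deficient mean in 1 of the 35 genes, Rfc5.

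Of 54 other replication genes tested, from 5 further lists, 20 rose in labelled-deficient monocytes and 0 passed as lower. The changes of 48 lay above 0 and of 6 below it, the lowest at -0.42. Origin recognition and licensing had 3 of 8 higher, Orc6 (0.90) and Orc1 (0.69) of the origin complex and Gmnn (0.86), the inhibitor of Cdt1. Origin firing and fork factors had 8 of 15, led by Cdc7 (1.45 ± 0.21 SE, adjusted p = 2.52e-04), the kinase that fires origins, then Dscc1 (1.44), Ticrr (1.19) and Mtbp (0.88). Further polymerase, loader and single-strand binding genes had 3 of 14, Pole2 (0.81), Rpa1 (0.59) and Pold2 (0.47). Nucleotide supply had 2 of 9, Dut (0.97), which removes dUTP, and Dtymk (0.94). Replication-coupled chromatin had 4 of 8, led by the remodeller Hells (1.34). List medians were 0.22, 0.66, 0.30, 0.26 and 0.50, in this order.

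Upstream of replication, 5 of 11 E2F and pocket protein genes were higher, among them the E2F partner Tfdp1 (0.94 ± 0.14 SE, adjusted p = 4.11e-04), E2f7 (0.86), E2f3 (0.78) and E2f8 (0.63). Of G1 cyclins, kinases and inhibitors 3 of 15 were higher: the phosphatase Cdc25a (1.77 ± 0.25 SE, adjusted p = 1.77e-04), which activates cyclin E's kinase, Cdk6 (1.40) and that kinase itself, Cdk2 (0.89). None was lower in either list. The difference between the cell types' changes passed for Orc1, Tfdp1, E2f7, E2f3, Cdc25a and Cdk2, each with the larger change in monocytes. These were 1 of 8 origin recognition and licensing genes, 3 of 11 E2F and pocket protein genes and 2 of 15 G1 genes. Firing and fork genes had 0 of 15 and polymerase and loader genes 0 of 14. Nucleotide supply had 0 of 9, chromatin 0 of 8 and mitosis and G2 0 of 24. Over all genes, 2.17% passed in that direction. Downstream, all 24 mitosis and G2 genes lay above 0, with a median of 0.58, and 1 passed, Ccnb2 (0.54). That list also lay above 0 in all 24 genes in neutrophils, with a median of 0.36 and 0 passing, where the median of the 35 replication genes was 0.07.

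Markers of other cells moved with the replication genes in the same arrays. All 12 neutrophil markers were higher in labelled-deficient monocytes (median 2.71), as were 7 of 8 promyelocyte and primary granule markers (median 2.68), led by Nkg7, Ms4a3, Fcnb and Elane, while 3 of 10 monocyte markers were lower and none higher (median -0.78). Summed on the linear scale, promyelocyte markers ran from 10.6 to 12.2 (log2) in control monocytes, 12.2 to 14.0 in labelled-deficient monocytes, 10.4 to 10.8 in control neutrophils and 10.5 to 10.7 in labelled-deficient neutrophils. Neutrophil markers ran from 12.3 to 14.1, 14.7 to 15.2, 15.9 in all and 15.8 to 15.9 in the same order, and monocyte markers from 13.7 to 13.9 in control and 12.5 to 13.7 in labelled-deficient monocytes. Labelled-deficient array 2 was the lowest of its group for promyelocyte markers, at a median of 8.99 against 10.2, 10.5 and 10.8, as it was for the 35 genes, at 6.75 against 7.28, 7.48 and 7.69. Control monocytes of set B, by contrast, had promyelocyte medians of 8.49 and 7.67 against 6.75 and 6.50 in set A, while the 35 genes stood at 6.56 and 6.41 against 6.52 and 6.51. The part of these cells in the rise of replication genes was not tested.

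**Figure D5:**
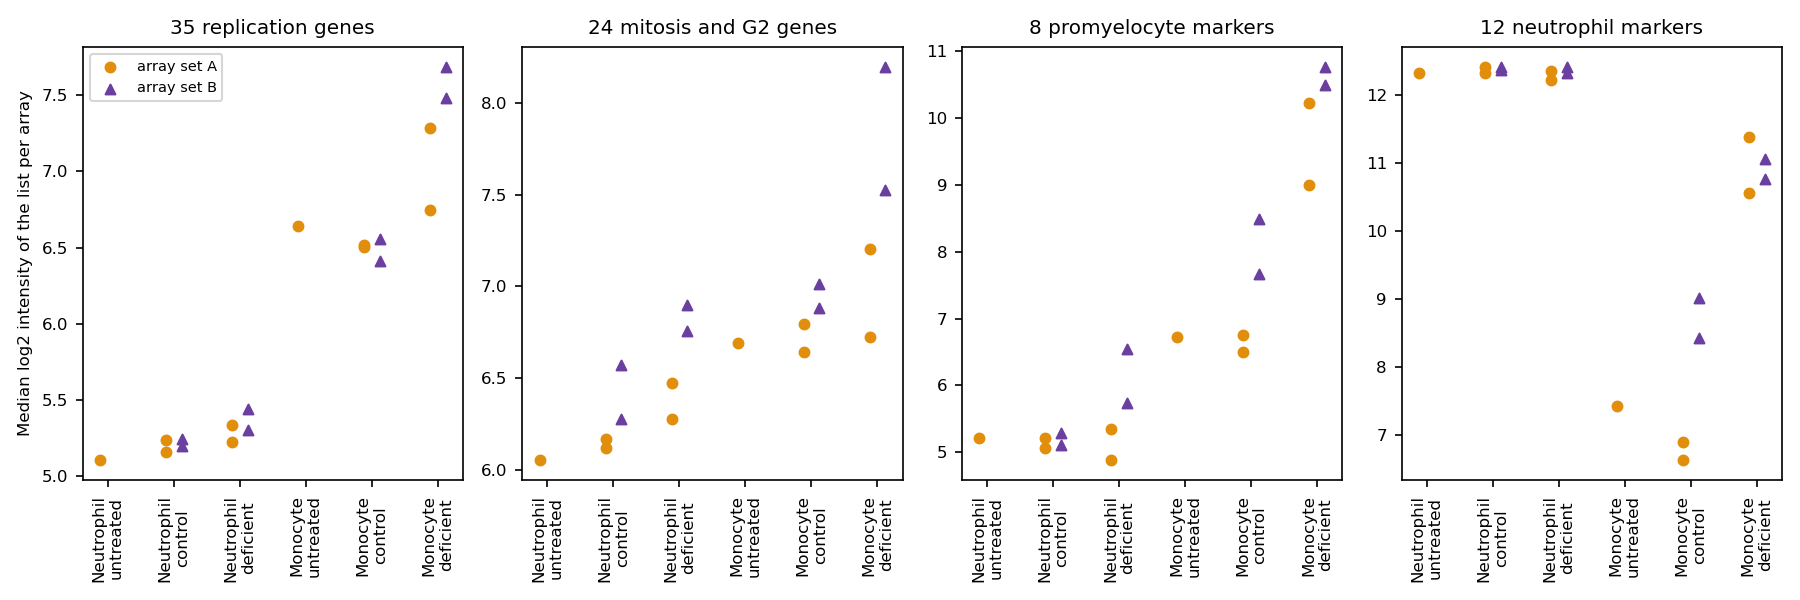
Median log2 intensity per array of the 35 replication genes, 24 mitosis and G2 genes, 8 promyelocyte markers and 12 neutrophil markers, by group, with array set A as circles and set B as triangles. In monocytes the labelled-deficient arrays lie above every control for the replication genes and both marker lists and overlap them for mitosis and G2, and the control monocytes of set B stand above those of set A for the marker lists but not for the replication genes.

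Stem and progenitor markers had 3 of 8 higher, Myb, Kit and Erg, and 1 lower, Flt3. Myb, Kit and Erg also had higher means in control neutrophils (7.07, 6.05 and 7.89) than in control monocytes (6.10, 4.52 and 5.09). Which cells of these sorts they come from was not tested. Flt3 was the other way round, at 4.75 and 6.30. Their summed level ran from 8.28 to 8.58 in control and 8.72 to 9.89 in labelled-deficient monocytes, and from 9.21 to 9.31 and 9.06 to 9.39 in control and labelled-deficient neutrophils. Cd34 was above the 40th percentile in 1 of 18 arrays. Of 5 erythroid markers tested 1 was higher, Tfrc (1.61), the transferrin receptor of dividing cells at large, and Klf1 and Rhag were above the 40th percentile in no array. None of 5 B cell and 5 T and NK cell markers tested passed, and Cd79a, Ebf1, Rag1, Dntt, Klrb1c, Ncr1 and Gzma were above it in no array. Of 6 dendritic cell markers tested Ccr9 was higher and Tcf4 and Cd209a lower, with Siglech and Xcr1 above the 40th percentile in no array.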

How the data were processed

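The deposited values are log2 intensities per probe set of the Mouse Gene 1.0 ST array, summarised with RMA per the submitters' processing notes, with settings not given in the sources used here. Per the labels' protocols, total RNA was isolated with a column kit for small samples and amplified with Ovation PicoSL. Array medians were 4.81 to 4.92, and single values spanned 1.05 to 13.5, and the number of arrays limits precision.

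Of 30177 probe sets, 21789 had 1 gene symbol, 1621 several and 6767 none, and 99.59% of the symbols matched a gene in the RefSeq table. Genes above the 40th percentile of the array in at least 4 arrays were tested. Group means of all 18 arrays were fitted with limma 3.58.1 in R 4.3.3, with a variance trend, 12 residual degrees of freedom and two-sided p-values adjusted over 13387 genes by Benjamini-Hochberg, at a threshold of 0.05. Adjusted p-values are limma's. Lists are described by counts and medians, with no test of a list. The method was tested on simulated data with independent noise for each gene and array. That noise holds no shift shared by many genes of an array or set. The 2 untreated arrays entered no contrast.

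Arrays with the same number were compared through their deviations from the group means. Control and labelled-deficient arrays of 1 number correlated at 0.183 to 0.428 in 6 of 6 pairs, so the number was also fitted as a replicate block. Other pairs within a set correlated at 0.127 to 0.348, so the set was tried as a block and each set fitted alone. Pairs across sets lay below 0, which is not a separate observation. Deviations within a group sum to 0, so values above 0 within a set bring values below it across sets.

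The 35 genes, the 17 lists, the roles and the tests were chosen with earlier results of these data known. Per-array values are given for the 3 genes of each role with the largest change in monocytes and for further genes a sentence turns on. Each contrast names its 10 largest changes, and genes of other lists are named where they passed, up to 4 a list. Promoters shown are those with the most matches, ties going to the larger change in monocytes. Alternatives were other filters, quantile normalization, median-centring, the mean of probe sets, fits of fewer groups, no variance trend, array weights and leaving out single arrays.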

Additional observations from a re-analysis of the deposited data

Results flagged for a closer look

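1 array lay far from the rest in 6 of 140 groups of 4 arrays, no more than chance gives, about 1 in 20. In 4 of these it was labelled-deficient monocyte array 2, low for Mcm4 (7.42, next 8.11), Chaf1b (5.21, next 5.73), E2f1 (5.69, next 6.24) and Rpa2 (6.57, next 6.96). The others were high: control monocyte array 1 for Pola1 (6.80, next 6.47) and control neutrophil array 4 for Uhrf1 (5.08, next 4.81).

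The change by genotype differed between monocytes and neutrophils for 4 genes by a test of the difference itself: Mcm2 (1.26), Mcm3 (1.08), Ccne1 (1.32) and Cdc6 (1.18), each larger in monocytes.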

How the results depend on the processing

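All 35 genes stayed above 0 in monocytes in every alternative run that kept them, save Tk1, by the probe set used, within set A. The count of 22 ran from 18 to 31 as single arrays were left out, where 3.33% to 7.84% of all genes were higher. In all 16 of those fits 18 of the 22 genes passed, the others being Mcm7, Lig1, Prim1 and E2f1. With only the monocyte groups compared in the fit the count was 18 (2.97% of all genes), and within set A alone 2 (1.43%). The count of 4 genes whose change differed between cell types ran from 3 to 18 without single arrays, where 1.52% to 4.24% of all genes passed in that direction. It was 7 with a filter at the 60th percentile (3.26% of all genes), 14 with array weights (3.44%) and 11 with the set as a block (3.19%). Within set A it was 0 (0.508%) and within set B 15 (3.68%). With the replicate block it was 7 (2.67%), and the monocyte count 20 (4.59%). Beside Prim1, Lig1, E2f1 and Pold1 in monocytes and the 3 genes added to the difference, the block changed no call of the 35 in any of the 5 comparisons. The median of control monocytes over control neutrophils, 1.09, was 1.17 under the stricter filter, 0.93 after quantile normalization and 0.83 after median-centring, which moved the median of all genes from -0.08 to -0.34. Without single arrays, counts there ran from 27 to 31, where 27.7% to 30.4% of all genes were higher. Among labelled-deficient arrays they ran from 35 to 35, where 28.3% to 29.9% were. Signal near background limits 8 genes in control and 8 in labelled-deficient neutrophils, Cdc6 in both and Mcm3 in the latter. The causes of these shifts were not tested.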
